A study of Mus musculus with 8 samples.

Results

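The collagen and laminin chains of sorted adipose tissue macrophages are described here. They are the genes whose symbol in the HFD or the ND expression table is that of a collagen alpha chain (Col, type number, a, chain number) or of a laminin alpha, beta or gamma chain (Lama, Lamb or Lamc with a number). This gave 54 genes, 43 collagen and 11 laminin chains, of 18040 genes in either table. The HFD table listed 53 of them, all but Col9a1, 52 were listed for ND, all but Col24a1 and Col26a1, and 51 were in both. By type, 6 were fibrillar chains (types I, III and V), 19 were basement membrane chains (types IV, XV and XVIII and the laminins), 6 were type VI chains, and 23 belonged to other types.

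RNA-seq was done on macrophages of epididymal white adipose tissue (eWAT) from WT male C57BL/6J mice, in 4 groups of 2 libraries. ARMs (adhesion-related macrophages) were sorted from the adipocyte layer after digestion with collagenase, and SMs, titled NARM in the labels, from the stromal vascular fraction. The mice had a normal diet (ND) or 8 weeks of a high-fat diet (HFD), with either diet begun at 6 weeks of age. A library came from 6 pooled mice on HFD or from 10 on ND and was sorted on CD45, CD11b and F4/80, so a library is a pool, and the spread between libraries is not that between single mice.

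Collagens are trimers of alpha chains. Type I is built mainly from a pair of Col1a1 chains and 1 Col1a2 chain, and types III and V join it in the fibrils of interstitial matrix. Type IV, chiefly as a trimer of Col4a1 and Col4a2 chains, forms the sheet of basement membranes together with laminins, which are cross-shaped trimers of 1 alpha, 1 beta and 1 gamma chain. Type VI forms beaded filaments around cells and is abundant in adipose tissue, where each adipocyte lies in a basement membrane of its own. Fibroblasts, pericytes, endothelial cells and adipocytes are the usual producers of these chains, and macrophages are usually minor ones.

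The libraries held 14508824 to 19040133 estimated counts. The 10 macrophage markers, such as Adgre1 and Csf1r, summed to between 26100 and 30800 TPM in every library, and none of the 10 was called between ARMs and SMs in either diet. Transcripts of other cell types were present in every library at far lower levels and were mostly higher in ARMs, as given with the chains further on. In ND ARMs, replicate 2 was above replicate 1 for 34 of the 35 chains tested, with a median ratio of 1.58, whereas 48.7% of all genes tested were above. In ND SMs, replicate 2 was above for 29 of 35 chains (median ratio 1.28), and in HFD mice for 21 of 40 chains in SMs and 25 of 40 in ARMs (median ratios 1.01 and 1.05). The spread between ND replicates was thus shared by nearly all chains.

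Chain levels were compared per gene length as FPKM. Col3a1, the chain of type III fibrils, was the highest chain in all 8 libraries. In HFD ARMs it was followed by Col4a1, then by Col6a2, and then by Col6a1, Col1a2 and Col4a2, whose library ranges overlapped, and in ND ARMs by Col1a2 and then by Col6a1, Col4a1, Col1a1 and Col6a2, whose library ranges overlapped. All chains together summed to 274 and 280 TPM in the HFD SM libraries and to 463 and 534 TPM in the HFD ARM libraries. In ND mice the sums were 151 and 191 TPM in SMs and 365 and 543 TPM in ARMs. ARMs were above SMs in both diets without overlap, the ratio of their means being 1.80 on HFD and 2.66 on ND.

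**Figure D1:**
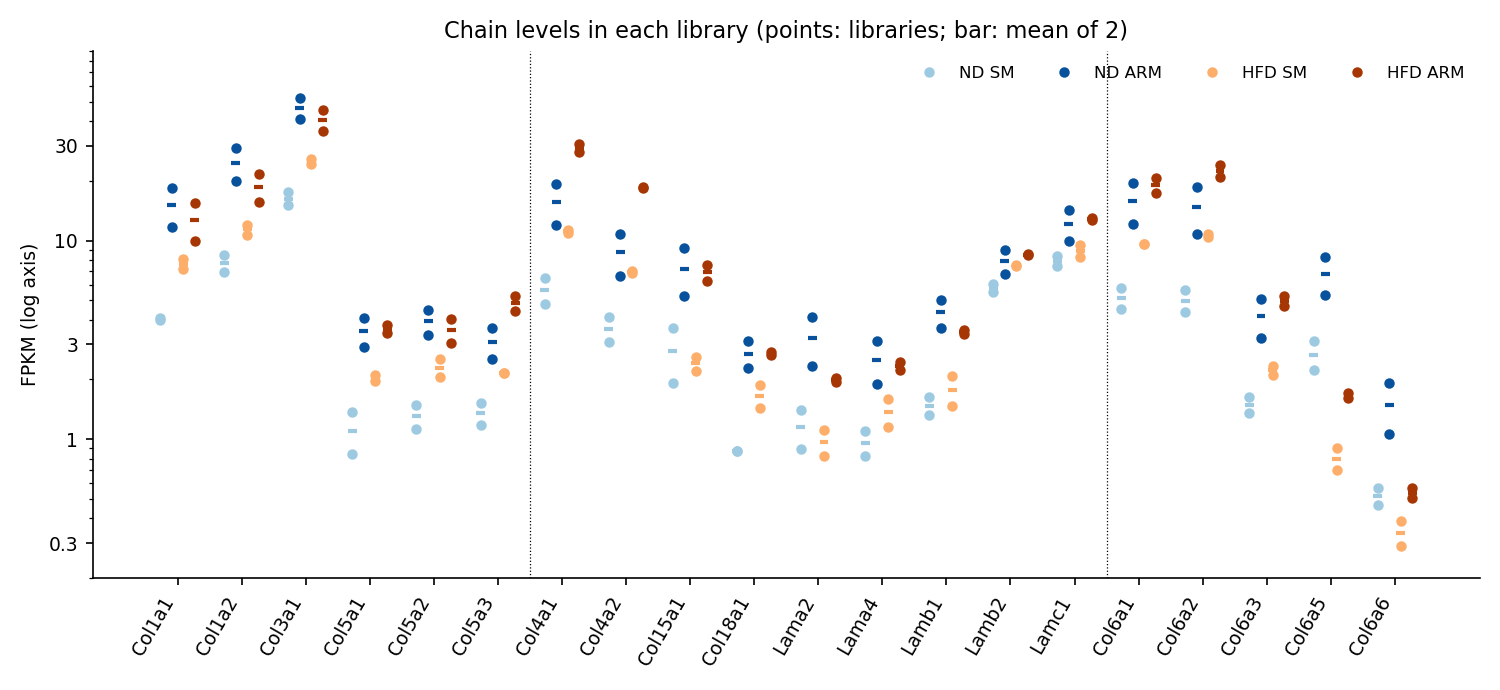
FPKM (log axis) of 20 chains in each of the 8 libraries, with fibrillar chains on the left, basement membrane chains in the middle and type VI chains on the right. Points are libraries and short bars the mean of 2. Both ARM libraries lie above both SM libraries of the same diet for each chain shown. Col6a5 and Col6a6 are the chains whose HFD libraries lie below the ND libraries in both SMs and ARMs. Of all genes, 46.4% lie so in SMs and 43.2% in ARMs.

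To be called, a gene had to differ by more than 1.5-fold with an adjusted p below 0.05 (edgeR's quasi-likelihood test on the rounded estimated counts of 1 diet, Benjamini-Hochberg over all genes tested). In HFD mice, 40 of the 53 chains passed edgeR's filter on low counts and 19 were called higher in ARMs, against 4.46% of all 13337 genes tested. In ND mice, 35 of 52 chains passed and 24 were called higher, against 3.55% of 12441 genes. No chain was called lower in either diet, where 0.292% and 0.129% of all genes were, and at an unadjusted p under 0.05 the 28 chains in HFD mice and the 30 in ND mice were also all higher. The log2 fold change was above 0 for 37 chains in HFD mice (48.5% of all genes) and for all 35 in ND mice (46.5% of all genes). Both ARM libraries exceeded both SM libraries for 33 and 31 chains, against 26.3% and 21.2% of all genes. In these bulk samples, fewer cells of a type and less RNA per cell cannot be told apart.

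The median log2 fold change of all chains tested was 0.70 on HFD and 1.36 on ND, beside -0.01 and -0.02 for all genes. In HFD mice the median was 1.03 for type VI chains, 0.89 for basement membrane chains, 0.70 for fibrillar chains and 0.36 for the other chains. In ND mice it was 1.61 for fibrillar, 1.49 for type VI, 1.37 for basement membrane and 0.96 for the other chains. The order of the classes was not tested and rests in part on single libraries. Without HFD ARM replicate 1 the median was 0.87 for fibrillar and 0.84 for basement membrane chains, and limma on log2(FPKM + 1) gave 0.65 and 0.61. Without ND ARM replicate 1 it was 1.88 for type VI and 1.83 for fibrillar chains. Without ARM replicate 2, 9 chains were called in HFD mice, all of them among the 19. These were Col15a1, Col4a1, Col4a2, Col5a1, Col5a3, Col6a1, Col6a2, Col6a3 and Col6a5. The same 9 were called with no filter on low counts, and in ND mice 16 of the 24 were called without ARM replicate 2.

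**Figure D2:**
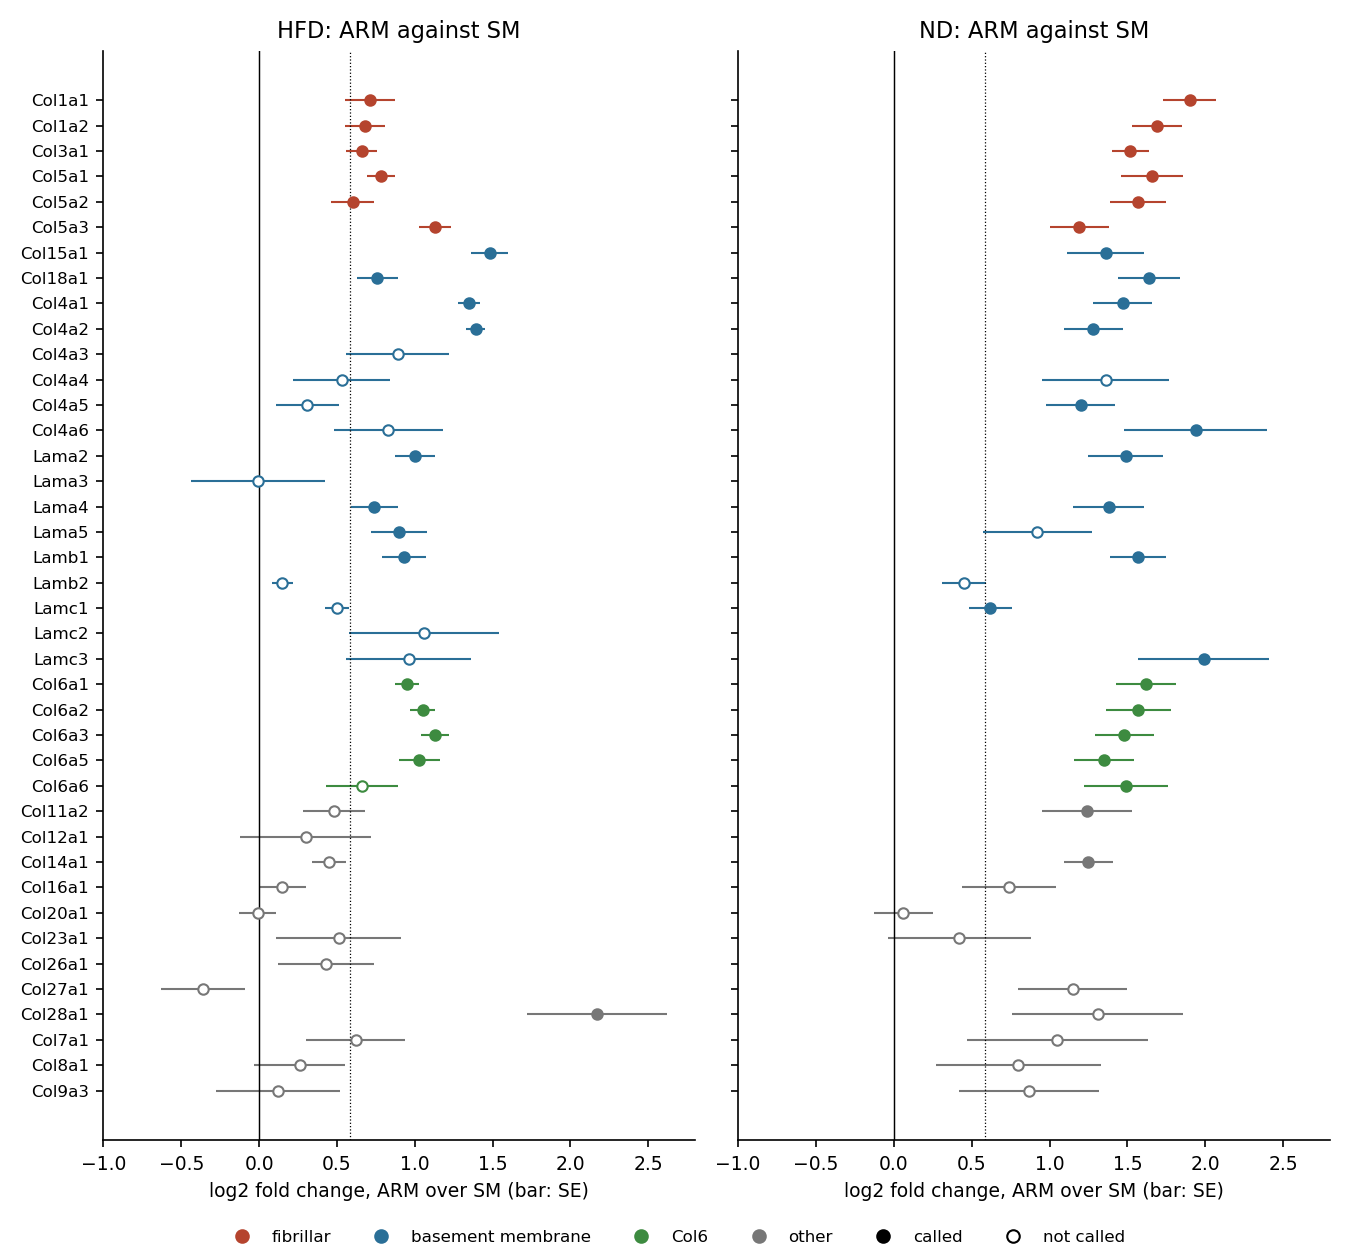
Log2 fold change of ARMs over SMs for each chain tested, with its standard error, in HFD mice (left) and ND mice (right). Colors mark the chain class, filled points are called, and the dotted line is a fold change of 1.5. In HFD mice Col4a1, Col4a2 and Col15a1 lie to the right of all 6 fibrillar chains. In ND mice the fibrillar chains reach 1.90, and the basement membrane chains Col4a6 (1.94) and Lamc3 (1.99) lie further right.

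Sequences upstream of 4 chains called higher in both diets are shown, with at least 1 from each of the 3 main classes, so that the promoters of chains that moved together can be compared. They were picked by hand and shown because at least 90 bases of their window lay outside annotated transcribed sequence. Col1a2 was also tried and had fewer, and the other chains called in both diets were not screened. They are RefSeq windows on GRCm38.p6, written 5′ to 3′ on the strand of the gene, and capitals mark matches on either strand to the TATA box (TATAAA), the CCAAT box (CCAAT), the GC box (GGGCGG) or the AP-1 site (TGANTCA).
Col3a1, chr1:45311288-45311537, plus strand: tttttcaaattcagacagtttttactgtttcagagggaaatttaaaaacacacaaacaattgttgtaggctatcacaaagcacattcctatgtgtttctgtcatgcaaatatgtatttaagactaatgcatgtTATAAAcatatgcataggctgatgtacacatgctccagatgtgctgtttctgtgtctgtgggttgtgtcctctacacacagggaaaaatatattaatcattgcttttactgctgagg
Col18a1, chr10:77166549-77166780, minus strand: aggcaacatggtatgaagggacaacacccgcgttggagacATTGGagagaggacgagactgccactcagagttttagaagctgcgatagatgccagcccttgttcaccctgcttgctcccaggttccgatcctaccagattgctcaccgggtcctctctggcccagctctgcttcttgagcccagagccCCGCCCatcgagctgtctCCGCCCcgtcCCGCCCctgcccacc
Lamb1, chr12:31265043-31265145, plus strand: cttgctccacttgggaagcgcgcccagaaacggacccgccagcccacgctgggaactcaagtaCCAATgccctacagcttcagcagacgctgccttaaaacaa
Col6a3, chr1:90844002-90844221, minus strand: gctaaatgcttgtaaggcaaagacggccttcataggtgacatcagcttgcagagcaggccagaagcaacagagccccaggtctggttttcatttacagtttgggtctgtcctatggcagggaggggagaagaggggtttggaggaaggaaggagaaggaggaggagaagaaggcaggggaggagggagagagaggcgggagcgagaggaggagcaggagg
The Col3a1 stretch, rich in A and T, holds TATAAA, with its first base 117 bases before the start. The Col18a1 stretch holds the GC box GGGCGG 3 times and CCAAT once, each on the strand opposite to the gene. A second RefSeq window of Col18a1, at another start, holds none of the 4 motifs, and which start these cells use was not tested. The Lamb1 stretch holds CCAAT, and the Col6a3 stretch holds none of the 4. The Lamb1 stretch is 103 bases long and lacks the 147 bases nearest the start. With these, its window holds 2 GC boxes.

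RefSeq windows were found for 39 of the 54 chains, and the 4 motifs were searched in the 250 bases before the start, for these chains as for all genes. The GC box was in the window of 3 of 4 fibrillar, 6 of 12 basement membrane and 4 of 6 type VI chains, and of 35.4% of all 27025 genes with a window. CCAAT was in 2, 5 and 1 of them (37.5% of all genes), and TATAAA was in 1 fibrillar window, that of Col3a1, in no basement membrane or type VI window and in 4 of the 17 windows of other types, those of Col10a1, Col11a2, Col13a1 and Col17a1 (14.3% of all genes). The AP-1 site was found in 1 of the 39, that of Col6a1 (7.82% of all genes). These are matches of letters in these windows and say nothing on which factors bind. Several chains are neighbors in the genome. Col4a1 and Col4a2 are transcribed away from each other on chromosome 8 from starts 21 bases apart, and their reads near the start could be mixed if counting ignored strand. Col4a6 and Col4a5 are arranged alike on chromosome X, with 1343 bases between their starts. Col6a4, Col6a5 and Col6a6 lie side by side on chromosome 9.

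The fibrillar chains were all called higher in ARMs of both diets, 6 of 6. In HFD mice this depended on the method. DESeq2, 1 fit of all 8 libraries, and filtered limma on log2(FPKM + 1) or log2(FPKM + 0.1) each called 4 of them. Col1a1 was called in none of these runs (DESeq2 adjusted p = 0.19). Col1a1 (Entrez 12842, chr11:94936224-94953042) was at 8.03 and 7.17 FPKM in HFD SMs and 9.96 and 15.39 FPKM in HFD ARMs, and at 3.99 and 4.06 FPKM in ND SMs and 11.73 and 18.37 FPKM in ND ARMs. ARMs lay above SMs without overlap in both diets, and the ARM libraries of each diet were further apart than the SM libraries. Its log2 fold change was 0.71 (SE 0.16, edgeR adjusted p = 0.019) in HFD mice and 1.90 (SE 0.17, adjusted p = 2.8e-05) in ND mice.

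Col1a2, the partner of Col1a1 in the type I trimer (Entrez 12843, chr6:4505618-4541543), was at 12.0 and 10.72 FPKM in HFD SMs, 15.59 and 21.66 FPKM in HFD ARMs, 6.95 and 8.41 FPKM in ND SMs and 20.0 and 29.35 FPKM in ND ARMs. It rose by 0.68 (SE 0.13, edgeR adjusted p = 0.0075) and 1.69 (SE 0.16, adjusted p = 4e-05) on the log2 scale, again with no overlap. The ratio of Col1a1 to Col1a2 in FPKM was 0.669 in both HFD SM libraries, 0.639 and 0.711 in HFD ARMs, 0.574 and 0.483 in ND SMs, and 0.587 and 0.626 in ND ARMs. It overlapped between ARMs and SMs in HFD mice and was slightly higher in ARMs in ND mice.

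Col3a1 (Entrez 12825, chr1:45311538-45349706), whose upstream sequence is given above, was at 25.76 and 24.23 FPKM in HFD SMs and 35.54 and 45.34 FPKM in HFD ARMs. In ND mice it was at 15.02 and 17.45 FPKM in SMs and 40.79 and 52.22 FPKM in ARMs. Its log2 fold changes were 0.66 (SE 0.10, edgeR adjusted p = 0.0021) and 1.52 (SE 0.12, adjusted p = 1.6e-05). Per Col1a2 it stayed between 1.78 and 2.28 in all 8 libraries.

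The type V chains, which control fibril diameter, were lower in level. Col5a1 was at 1.97 and 2.11 FPKM in HFD SMs, 3.43 and 3.76 FPKM in HFD ARMs, 0.84 and 1.37 FPKM in ND SMs and 2.90 and 4.10 FPKM in ND ARMs (log2 fold changes 0.78 and 1.66). Col5a2, a neighbor of Col3a1 on chromosome 1, was at 2.53 and 2.06, 3.05 and 4.04, 1.13 and 1.49, and 3.35 and 4.48 FPKM in the same order (0.60 and 1.57). Col5a3 was at 2.16 FPKM in both HFD SM libraries, 4.44 and 5.23 FPKM in HFD ARMs, 1.18 and 1.52 FPKM in ND SMs and 2.55 and 3.65 FPKM in ND ARMs (1.13 and 1.19). Both groups of each diet were apart for all 3, and Col5a3 was the fibrillar chain with the largest fold change in HFD mice and the smallest in ND mice. Without HFD ARM replicate 2, only Col5a1 and Col5a3 of the 6 were called in HFD mice, and the log2 fold change of Col1a1 was 0.38. In ND mice all 6 were called with any library left out.

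Basement membrane chains were called higher for 8 of 17 tested in HFD mice and 11 of 14 in ND mice, 7 of them in both. Col4a1 (Entrez 12826, chr8:11198423-11312889), the main type IV chain, was at 10.96 and 11.35 FPKM in HFD SMs and 27.75 and 30.43 FPKM in HFD ARMs. In ND mice it was at 4.78 and 6.49 FPKM in SMs and 11.91 and 19.3 FPKM in ARMs. The 4 HFD libraries were close to their group means, and the HFD ARM libraries were the highest of all 8. Its log2 fold changes were 1.35 (SE 0.07, edgeR adjusted p = 3.4e-06) and 1.47 (SE 0.19, adjusted p = 0.00029).

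Col4a2 (Entrez 12827, chr8:11312805-11449287), which joins the same trimer, was at 6.86 and 7.05 FPKM in HFD SMs, 18.44 and 18.65 FPKM in HFD ARMs, 3.10 and 4.11 FPKM in ND SMs and 6.61 and 10.84 FPKM in ND ARMs. ARMs were above SMs without overlap by 1.39 (SE 0.06, edgeR adjusted p = 2.2e-06) and 1.28 (SE 0.19, adjusted p = 0.00094) on the log2 scale. The ratio of Col4a1 to Col4a2 lay between 1.5 and 1.8 in every library. Both chains were called in HFD mice under every alternative run, and in ND mice under every alternative but limma on log2(FPKM + 1) without a filter, which called no chain.

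The minor type IV chains, which build specialized basement membranes such as that of the kidney glomerulus, were far lower, at most 1.42 FPKM. Col4a5 was at 0.50 and 0.70 FPKM in ND SMs and 1.33 and 1.42 FPKM in ND ARMs and was called there (log2 fold change 1.20), whereas in HFD mice it was at 0.59 and 0.47 FPKM in SMs and 0.66 and 0.67 FPKM in ARMs (0.31, edgeR adjusted p = 0.39). Col4a6, which pairs with Col4a5, was called in ND mice (1.94) on 8 and 14 counts in SMs against 28 and 56 in ARMs, with 0.83 and an adjusted p of 0.18 in HFD mice. Col4a4 was at most 0.36 FPKM and was not called in either diet, and Col4a3, at most 0.18 FPKM, passed the filter only in HFD mice and was not called there.

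Types XV and XVIII are proteoglycan collagens that tie basement membranes to the matrix beneath. Col15a1 was at 2.21 and 2.61 FPKM in HFD SMs, 6.27 and 7.57 FPKM in HFD ARMs, 1.93 and 3.65 FPKM in ND SMs and 5.28 and 9.15 FPKM in ND ARMs. It rose by 1.48 (SE 0.12, edgeR adjusted p = 5.2e-05) and 1.36 (SE 0.25, adjusted p = 0.0037). Its ranges did not overlap in either diet, and in HFD mice it had the largest fold change of any chain over 1 FPKM. Col18a1, the precursor of endostatin, was at 1.88 and 1.43 FPKM in HFD SMs, 2.75 and 2.66 FPKM in HFD ARMs, 0.87 FPKM in both ND SM libraries and 2.28 and 3.11 FPKM in ND ARMs. Its log2 fold changes were 0.76 (SE 0.13, adjusted p = 0.0048) and 1.64 (SE 0.20, adjusted p = 0.00021).

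Among the laminins, 4 of 9 tested were called higher in HFD mice and 5 of 7 in ND mice. Lama2, the alpha chain of muscle and fibroblast laminin, was at 0.82 and 1.12 FPKM in HFD SMs, 1.95 and 2.03 FPKM in HFD ARMs, 0.89 and 1.41 FPKM in ND SMs and 2.33 and 4.12 FPKM in ND ARMs (log2 fold changes 1.0 and 1.49). Lama4, the alpha chain of vessel walls and of adipocytes, was at 1.15 and 1.59, 2.46 and 2.22, 0.82 and 1.1, and 1.90 and 3.12 FPKM in the same order (0.74 and 1.38). Lamb1, a beta chain, was at 1.47 and 2.09, 3.40 and 3.56, 1.32 and 1.63, and 3.64 and 5.05 FPKM (0.93 and 1.57). All 3 were called in both diets, with no overlap of ARMs and SMs.

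Lamc1 and Lamb2 were the 2 laminin chains highest in level. Lamc1, the gamma chain shared by most laminins, was at 8.26 and 9.53 FPKM in HFD SMs, 13.04 and 12.65 FPKM in HFD ARMs, 7.42 and 8.35 FPKM in ND SMs and 9.95 and 14.2 FPKM in ND ARMs. It was called in ND mice, at a fold change of 1.53 (edgeR adjusted p = 0.019), and in HFD mice its fold change of 1.42 was under the threshold at an adjusted p of 0.0031, with no overlap of ARMs and SMs in either diet. Lamb2, the other main beta chain, was at 7.55 and 7.47, 8.45 and 8.54, 5.54 and 6.01, and 6.81 and 8.99 FPKM and was not called in either diet. The ratio of Lamb2 to Lamb1 in FPKM was 5.14 and 3.57 in HFD SMs against 2.49 and 2.40 in HFD ARMs, and 4.2 and 3.69 in ND SMs against 1.87 and 1.78 in ND ARMs, without overlap in either diet.

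Lama5, the broad epithelial and endothelial alpha chain, was called in HFD mice only, at 0.28 and 0.27 FPKM in SMs against 0.54 and 0.51 FPKM in ARMs (log2 fold change 0.90, edgeR adjusted p = 0.011). In ND mice it was at 0.15 and 0.14 FPKM against 0.20 and 0.37 FPKM (0.92, adjusted p = 0.20). Lamc3 was called in ND mice (1.99) at 0.10 and 0.09 FPKM in SMs and 0.32 and 0.45 FPKM in ARMs. Lama1 and Lamb3 did not pass the filter in either diet. Of the 11 basement membrane chains called in ND mice, 5 remained without ARM replicate 2 and 7 without SM replicate 1, and of the 8 in HFD mice 4 remained without ARM replicate 1 and 3 without ARM replicate 2.

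Type VI chains were called higher for 4 of 5 tested in HFD mice and 5 of 5 in ND mice. Col6a1 (Entrez 12833, chr10:76708792-76726044) was at 9.59 and 9.61 FPKM in HFD SMs, 17.3 and 20.6 FPKM in HFD ARMs, 4.52 and 5.77 FPKM in ND SMs and 12.07 and 19.48 FPKM in ND ARMs. Its log2 fold changes were 0.95 (SE 0.08, edgeR adjusted p = 0.00012) and 1.62 (SE 0.19, adjusted p = 0.0002). Col6a2, its neighbor on chromosome 10 and partner in the trimer, was at 10.44 and 10.77, 20.87 and 23.98, 4.35 and 5.63, and 10.76 and 18.66 FPKM in the same order of groups (1.05 and 1.57). ARMs and SMs were apart in both diets for both chains.

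Col6a3, the largest chain of the trimer and the source of endotrophin, was at 2.10 and 2.35 FPKM in HFD SMs, 4.69 and 5.27 FPKM in HFD ARMs, 1.35 and 1.63 FPKM in ND SMs and 3.23 and 5.09 FPKM in ND ARMs (log2 fold changes 1.13 and 1.48). Per Col6a1 it was between 0.219 and 0.299 in all 8 libraries. Col6a5 and Col6a6 can replace Col6a3 in the trimer. Col6a5 was at 0.70 and 0.90 FPKM in HFD SMs, 1.62 and 1.71 FPKM in HFD ARMs, 2.22 and 3.12 FPKM in ND SMs and 5.31 and 8.29 FPKM in ND ARMs (1.03 and 1.35, both called). Col6a6 was at 0.29 and 0.39, 0.57 and 0.51, 0.47 and 0.57, and 1.06 and 1.93 FPKM, called in ND mice (1.49) and not in HFD mice (0.66, edgeR adjusted p = 0.11). The estimated counts of Col6a5 and Col6a6 were not whole numbers in either table, while those of other chains, such as Col6a2, Col5a1 and Lama2, were so in the HFD table alone. The 2 levels are uncertain where reads were divided between similar genes. Col6a4, the third such chain, was at most 0.03 FPKM.

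Of the chains of other types, 1 of 12 tested was called in HFD mice and 2 of 10 in ND mice, beside 4.46% and 3.55% of all genes. Col28a1, a beaded-filament chain of the nervous system, was called in HFD mice on 4 and 8 counts in SMs and 23 and 31 in ARMs (log2 fold change 2.17, SE 0.45, edgeR adjusted p = 0.015). Col14a1, a fibril-associated chain, was at 3.83 and 4.07 FPKM in HFD SMs and 4.85 and 6.12 FPKM in HFD ARMs (0.45, fold under 1.5), and at 1.62 and 1.98 FPKM in ND SMs and 3.69 and 4.88 FPKM in ND ARMs (1.25, called). Col11a2, a fibrillar chain of cartilage, was called in ND mice (1.24) and had an adjusted p of 0.17 in HFD mice. Col20a1 was at 1.23 to 1.77 FPKM in all 8 libraries, and ARMs and SMs overlapped in both diets.

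The share of each class in the summed TPM of all chains showed how the mixture of chains differed. The Col4a1 and Col4a2 pair took 13.9% and 14.3% of chain TPM in HFD SMs and 21.4% and 19.5% in HFD ARMs. In ND mice it took 10.6% and 11.5% in SMs and 10.6% and 11.7% in ARMs, so it was a larger part in HFD ARMs than in any other group. Fibrillar chains took 39.2% and 37.4% in ND SMs and 46.5% and 43.5% in ND ARMs, and 41.0% and 37.7% in HFD SMs and 33.3% and 37.9% in HFD ARMs, where the 2 groups overlapped. Laminins took a smaller share in ARMs of both diets, 14.1% and 11.9% against 15.5% and 17.4% in HFD mice and 14.4% and 14.2% against 22.0% and 20.6% in ND mice. Type VI chains took between 17.4% and 20.9% everywhere. With 2 libraries a group, the smallest two-sided p of an exact permutation test is 0.333, so the shares are given without a test.

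**Figure D3:**
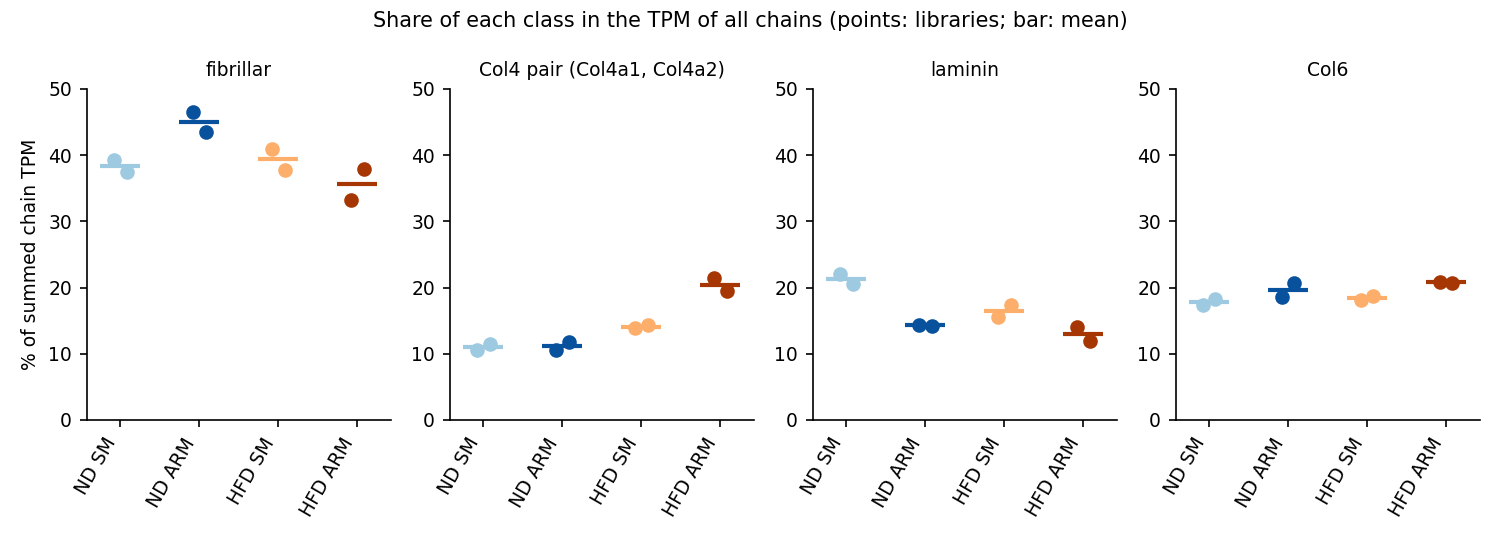
Share of summed chain TPM, in percent, taken by fibrillar chains, by Col4a1 and Col4a2, by laminins and by type VI chains in each library, with bars at the group means. The Col4a1 and Col4a2 pair averages 20.4% in HFD ARMs and 11.1% to 14.1% in the other groups, and laminins average less in ARMs than in SMs of both diets.

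The same shift appeared in the ratio of Col4a1 to Col3a1 in FPKM, which was 0.425 and 0.468 in HFD SMs, 0.781 and 0.671 in HFD ARMs, 0.318 and 0.372 in ND SMs and 0.292 and 0.370 in ND ARMs. It was higher in ARMs than in SMs on HFD, and on ND the 2 groups overlapped. In summed TPM, ARMs over SMs, fibrillar chains stood at 1.64 on HFD and 3.11 on ND, and the Col4a1 and Col4a2 pair at 2.60 and 2.69. Laminins stood at 1.41 and 1.79, and type VI chains at 2.03 and 2.96.

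Whether the ARM against SM change differed between diets was tested as an interaction in a fit of all 8 libraries. Of 39 chains tested, none was called (edgeR), as against 0.165% of 13358 genes, and 12 had an unadjusted p under 0.05, as against 7.61% of all genes. All 12 had the smaller change in HFD mice, which 4.91% of all genes did at that p, and the difference was below 0 for 34 of 39 chains (55.3% of all genes). The median difference was -0.60 for all chains, beside -0.03 for all genes. DESeq2 called 1 chain, Col3a1, and leaving out ND ARM replicate 1 gave 8. The calls for 7 chains in ND mice only and for 2 in HFD mice only are therefore not shown to differ between diets.

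By class, the median difference was -0.94 for the fibrillar chains, of which 5 of 6 had an unadjusted p under 0.05, -0.53 for type VI and -0.32 for the basement membrane. The 95% intervals given here are approximate. They assume a normal distribution and are narrower than the edgeR test implies. That of Col6a6 (-1.66 to -0.04), for one, excludes 0 at an unadjusted edgeR p of 0.0602. For Col1a1 the change was smaller in HFD mice by 1.21 (difference -1.21, interval -1.76 to -0.66, edgeR adjusted p = 0.13). For Col3a1 the difference was -0.87 (-1.22 to -0.52, adjusted p = 0.087). Col5a3 was the fibrillar chain that stood apart from these, with -0.08 (-0.53 to 0.38). For Col4a1 the difference was -0.13 (-0.61 to 0.36), for Col4a2 0.10 (-0.39 to 0.58) and for Col15a1 0.11 (-0.58 to 0.80). These 3 intervals run from -0.61 to 0.80 in all, and they do not show that the changes were equal. Col18a1 (-0.89, -1.37 to -0.41) and Lamb1 (-0.65, -1.16 to -0.14) were basement membrane chains nearer to the fibrillar ones.

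**Figure D4:**
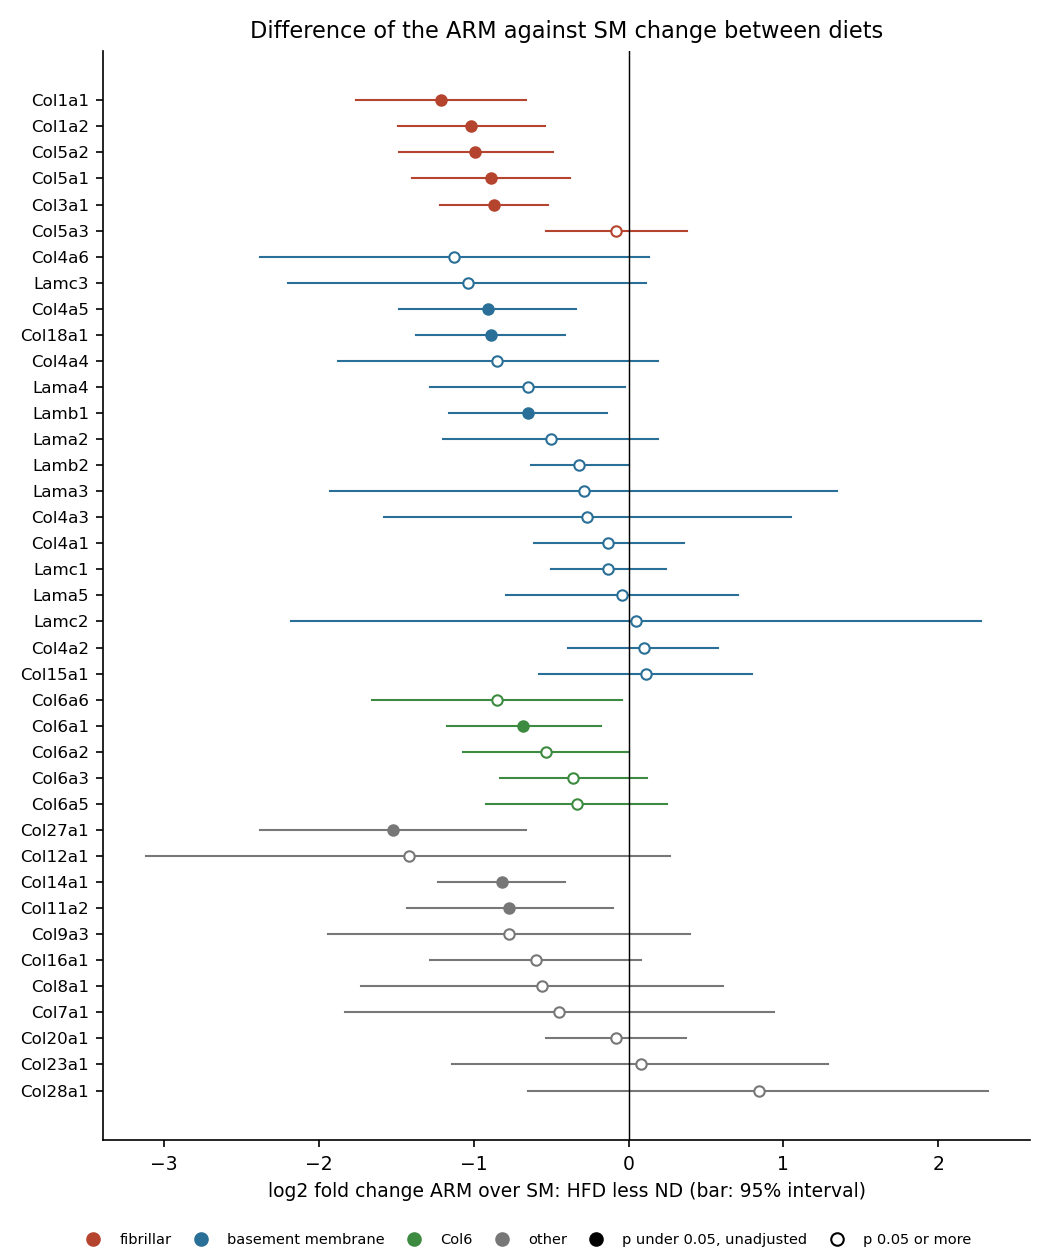
Difference between diets in the log2 fold change of ARMs over SMs (HFD less ND) for 39 chains, by class. Bars are approximate 95% intervals that assume a normal distribution, so some exclude 0 at an unadjusted p of 0.05 or more. Filled points have an unadjusted p under 0.05, and no chain had an adjusted p under 0.05. Of the fibrillar chains 5 lie between -1.21 and -0.87, while Col5a3, Col4a1, Col4a2 and Col15a1 lie near 0.

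The levels on the 2 diets are given as values, with no test, because each diet has its own table, the share of counts that were not whole differed between the tables, and diet and table cannot be told apart. In SMs, all 6 fibrillar chains were above their ND level in both HFD libraries, with a median log2 ratio of HFD to ND of 0.75, where 27.4% of all genes were above and the median of all genes was -0.12. In ARMs, 1 of the 6 (Col5a3) was, where 28.5% of all genes were, and the median was -0.17. Thus the fibrillar chains were further apart between diets in SMs than in ARMs. Col1a1, for one, was 1.89 times as high on HFD in SMs and 0.842 times in ARMs. For Col4a1 the ratios were 1.98 in SMs and 1.86 in ARMs, and for Col4a2 1.93 and 2.13, with no overlap of diets in either cell type. The basement membrane chains as a class did not all do so. Of 17, 8 were above their ND libraries in SMs and 0 below (median log2 ratio 0.38). In ARMs 3 were above and 5 below (median 0.01), among them Lama2 at 0.617 and Lamb1 at 0.801. Of all genes, 46.4% were below in SMs and 43.2% in ARMs.

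Col6a5 went the other way in both cell types. It was at 0.30 of its ND level in HFD SMs and 0.245 in HFD ARMs, while Col6a1 was at 1.87 and 1.20. In FPKM, Col6a5 per Col6a1 was between 0.0730 and 0.0937 in the 4 HFD libraries and between 0.426 and 0.541 in the 4 ND libraries, with ARMs and SMs close to each other in each diet. Col6a6, its neighbor on chromosome 9, was at 0.654 in SMs and 0.361 in ARMs, below the ND libraries in both. Lying below the ND libraries was common, at 46.4% of all genes in SMs and 43.2% in ARMs. The length of Col6a5 relative to Col6a1 implied by counts and FPKM was 2.35 in the HFD table and 2.39 in the ND table, so the gap was present in the counts. How the tables divided reads between similar genes was not tested. Col4a5 and Col4a6 were at 0.484 and 0.494 of their ND level in ARMs and at 0.883 and 1.0 in SMs.

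Genes that make, surround or bind these chains were followed as 3 lists. Of 26 processing genes tested, 4 were called higher in HFD ARMs and 10 in ND ARMs, and none lower, beside 4.46% and 3.55% of all genes called higher. Serpinh1, the collagen-specific chaperone of the endoplasmic reticulum, was at 8.35 and 7.45 FPKM in HFD SMs, 16.12 and 17.33 FPKM in HFD ARMs, 3.61 and 3.50 FPKM in ND SMs and 9.61 and 15.41 FPKM in ND ARMs (log2 fold changes 1.05 and 1.82). Sparc, a collagen-binding matrix protein, was at 37.02 and 34.59, 77.58 and 90.81, 22.81 and 26.47, and 45.82 and 69.26 FPKM (1.20 and 1.22). Both were called in both diets without overlap. The crosslinking enzyme Lox was called in both (0.72 and 1.66), and its relative Loxl2 (1.86) and the lysyl hydroxylase Plod2 (2.29) were called in ND mice. Plod2 was at most 0.81 FPKM there. P4hb, the highest of the list in FPKM, was at 176.79 to 191.32 FPKM on HFD and was not called in either diet (-0.11 and -0.02). Ppib (-0.05 and -0.18), Plod1 (-0.18 and -0.13) and Colgalt1 (0.14 and 0.06) were not called either. Of the 26, 19 had a log2 fold change above 0 on HFD and 21 on ND. The median of the list was 0.29 on HFD and 0.40 on ND.

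Of 19 partners tested, 10 were called higher in HFD ARMs (4.46% of all genes) and 11 in ND ARMs (3.55%), with medians of 0.63 and 1.44. Fmod, a fibril-binding proteoglycan, was called in ND mice (log2 fold change 2.0), and Fbln1, a fibulin of elastic fibers and basement membranes, in both diets (0.63 and 1.90). Smoc1, a basement membrane protein, was called in HFD mice (1.71), and its relative Smoc2 in both (0.94 and 1.66). Perlecan (Hspg2), the heparan sulfate proteoglycan of basement membranes, rose by 1.21 and 1.51. Nid1, a nidogen, which links laminin to type IV collagen, rose by 0.73 and 1.32. The other nidogen, Nid2, was higher in level, at 14.36 to 16.68 FPKM on HFD and 25.7 to 28.52 FPKM on ND. It was not called (-0.16 and 0.02). Tgfbi, the highest partner in FPKM, was not called either (-0.26 and -0.11). Of the 19, 14 had a log2 fold change above 0 on HFD and 18 on ND. Sparc, Hspg2 and Nid1 were chosen after their values were seen.

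Of 18 receptors tested, 5 were called higher in HFD ARMs (4.46% of all genes) and 3 in ND ARMs (3.55%), with medians of 0.55 and 0.68. Mrc2, a collagen uptake receptor, rose by 1.27 and 1.79, and Itga6, a laminin-binding integrin chain, by 1.48 and 0.82. Itga3, another laminin-binding chain, and Itga1, a collagen-binding one, were called in HFD mice (1.32 and 1.11). Each of these was low in level, at most 3.65 FPKM in any library. Itgb1 and Cd44, the highest of the list in FPKM, were not called in either diet (0.02 and 0.04 for Itgb1, 0.26 and 0.44 for Cd44). Itgb1 was at 121.75 to 129.5 FPKM on HFD. Dag1 (0.01 and 0.04) and Bcam (-0.18 and -0.33) were not called either. Of the 18, 15 had a log2 fold change above 0 on HFD and 16 on ND.

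Markers of the other cells of fat tissue were mostly higher in ARMs, and their counts stand beside 4.46% (HFD) and 3.55% (ND) of all genes called higher. Of 12 fibroblast and progenitor markers, of which Dcn, Lum and Fbn1 are also among the partners, 4 were called higher in HFD ARMs and 9 in ND ARMs. All 12 had a log2 fold change above 0 in ND mice and 8 had one in HFD mice, where Fbn1 (-0.22), Pi16 (-0.44), Mfap5 (-0.16) and Dpp4 (-0.09) were below 0 and not called. Gsn and Dcn were the highest of the list in FPKM, Gsn at 132.98 to 204.23 and Dcn at 51.29 to 99.88 in the HFD libraries, and so weigh most in its sum. The 12 summed to 527 and 517 TPM in HFD SMs, 711 and 789 TPM in HFD ARMs, 368 and 477 TPM in ND SMs and 805 and 1240 TPM in ND ARMs. The groups of each diet did not overlap, and ND ARM replicate 2 was highest, as it was for most chains. Of 10 endothelial markers, 9 were called on HFD and 1 on ND, with sums of 51.4 and 36.1 TPM in HFD SMs, 129 and 123 TPM in HFD ARMs, 23.2 and 28.0 TPM in ND SMs and 30.5 and 65.3 TPM in ND ARMs. All 10 endothelial markers had a log2 fold change above 0 in both diets, with medians of 1.51 on HFD and 0.78 on ND. More fibroblast markers were called in ND mice and more endothelial markers in HFD mice. The difference in these counts between diets was not tested.

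Pericyte and smooth muscle markers were called for 4 of 9 in HFD mice and 2 of 8 in ND mice, summing to 43.9 and 29.3 TPM in HFD SMs, 71.0 and 63.9 TPM in HFD ARMs, 17.1 and 14.8 TPM in ND SMs and 19.9 and 29.5 TPM in ND ARMs. Mesothelial markers were called for 0 of 7 in HFD mice and 6 of 7 in ND mice, where they summed to 10.8 and 14.8 TPM in SMs and 38.7 and 50.8 TPM in ARMs. In HFD mice they summed to 31.9 and 17.3 TPM in SMs and 37.4 and 26.1 TPM in ARMs, and the 2 groups overlapped. Adipocyte markers were called for 8 of 10 and 6 of 10, with sums of 78.2 and 83.1 against 227 and 249 TPM in HFD mice and 107 and 129 against 201 and 337 TPM in ND mice. Lymphatic markers were called for 3 of 6 and 4 of 6 at sums of at most 24.5 TPM, and the 1 Schwann cell marker tested in each diet was not called. No marker of any list was at 0 in all libraries of a diet in which it was listed. The part of these cells in the chain levels was not tested.

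**Figure D5:**
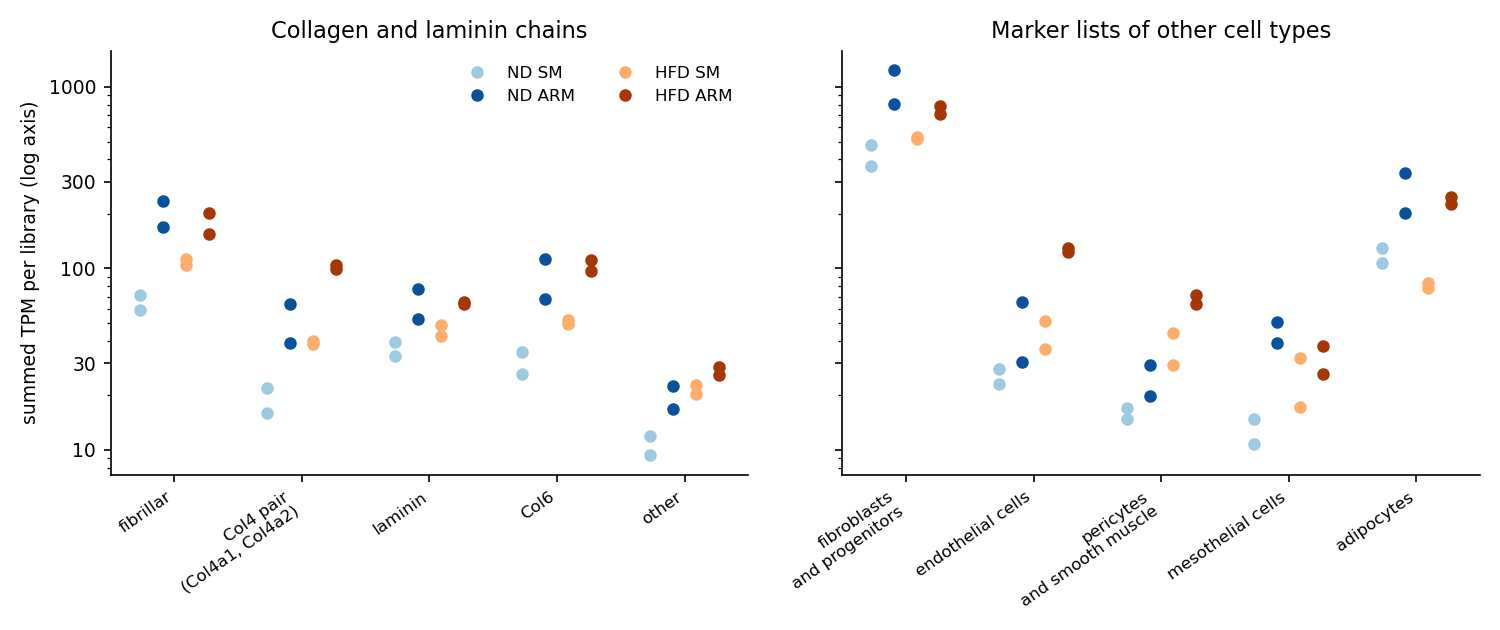
Summed TPM per library (log axis) of the chain classes (left) and of marker lists of 5 other cell types (right). Points are libraries. The fibroblast and progenitor sum reaches 1240 TPM in ND ARMs, and the endothelial sum is highest in HFD ARMs, at 123 and 129 TPM. On the left, Col4a1 and Col4a2 sum to 99.0 and 104 TPM in HFD ARMs. The part of the other cell types in the chain levels was not tested.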

How the data were processed

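The authors deposited 1 table per diet, which gives each gene's expected count, FPKM and TPM by library. The aligner, counting program and annotation are not given in the sources used here, and mm10 is the build in the submitters' processing notes. Of the expected counts, 32.29% to 32.91% per library were fractional in the HFD table and 8.55% to 9.36% in the ND table, so the 2 deposited tables differ in this.

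Counts were rounded, and edgeR 4.0.16 (R 4.3.3) was run on the 4 libraries of each diet (TMM, filterByExpr, quasi-likelihood test, Benjamini-Hochberg over all genes tested), with calls at more than 1.5-fold and adjusted p below 0.05. The difference between diets was an interaction over all 8 libraries for genes in both tables. Levels between genes were compared in FPKM or TPM. Each library was a pool of mice, so p-values rest on the spread between pools and not between single mice. edgeR draws the spread of each gene toward a trend over all genes tested. A small p-value therefore does not rest on the 2 pools a group of that gene alone. The smallest exact two-sided p of 2 against 2 libraries is 0.333. Replicates differed by more than sampling noise (mean chi-square per gene 4.21 to 10.1).

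Chains named are those of the fibrillar, basement membrane and type VI classes past the filter, and of other types those called or highest in FPKM, with up to 4 genes of each list by size of change among those called and others needed to show its spread. The members and lists were chosen with earlier results of these data known. Positions and promoters came from RefSeq on GRCm38.p6, and annotated exons from GENCODE were cut from the printed sequences. Alternatives were DESeq2 1.42.0, library totals, upper-quartile factors, other filters, 1 fit of all libraries, the threshold of the study's methods, a replicate block, limma 3.58.1 on log2(FPKM + 1) or log2(FPKM + 0.1), and each library left out. Ratios between diets on the TPM and CPM scales were chosen after seeing the data. The fits were tested on simulated data. The authors' columns of group means were not used. Figures were drawn with matplotlib 3.10.9.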

Additional observations from a re-analysis of the deposited data

How the results depend on the processing

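No class median and no fold change of a chain called in either diet changed direction under any alternative run, and 108 of the counts recomputed under an alternative stayed within 1.5 times the reported count while 30 did not. Of the fold changes of single chains, 578 kept their side of the threshold, 118 lost the call and 5 gained it. With no filter on low counts (more genes tested), 9 chains were called in HFD mice, 2 of them fibrillar and 3 basement membrane, and 1 for the difference between diets. limma on log2(FPKM + 1) gave 12 chains in HFD mice and 15 in ND mice, with 5 and 4 basement membrane chains. limma on log2(FPKM + 0.1) gave 15 chains in ND mice and again 5 and 4 basement membrane chains. limma on log2(FPKM + 1) without a filter gave 2 chains in HFD mice, both basement membrane, and 0 in ND mice, with 0 fibrillar and 0 type VI chains in either diet and 0 basement membrane chains in ND mice. It called 33 genes higher of 17722 tested in HFD mice and 0 of 16428 in ND mice, and the cause was not tested. DESeq2 gave 7 basement membrane chains in ND mice and 1 chain for the difference between diets, and the threshold of the study's methods gave 12 for that difference, by its unadjusted p. With each library left out, the count ranged from 9 to 20 chains in HFD mice, from 16 to 28 in ND mice and from 0 to 8 for the difference between diets. It ranged from 2 to 6 for fibrillar chains in HFD mice, from 3 to 9 and from 5 to 14 for basement membrane chains in HFD and ND mice, and from 4 to 5 for type VI chains in ND mice, and stayed at 6 fibrillar chains in ND mice and 4 type VI chains in HFD mice. The median log2 fold change of basement membrane chains in HFD mice ranged from 0.16 (limma without a filter) to 0.95 (limma with 0.1 added).

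The replicate number as a block gave 19 chains in HFD mice, 28 in ND mice and 7 for the difference between diets, among them 5 fibrillar chains, Col14a1 and Col6a1. The deviations of same-numbered libraries correlated at -0.0284 in HFD mice and 0.221 in ND mice, and nothing in the labels says that the numbers pair the libraries. Of the HFD to ND ratios, 2 chains of other types in SMs changed sign between FPKM, TPM and CPM. Low counts limit the minor chains: Lama1, Lamb3 and Col6a4 could not be compared at this depth, and those at under 1 FPKM had standard errors of up to 0.58 on the log2 scale.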
